A study of Mus musculus with 10 samples.

Results

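The 8 genes described here encode acid hydrolases of the lysosome that remove single sugars from glycans, and they were chosen by gene symbol. They are Manba, Man2b1, Glb1, Hexa, Gusb, Gla, Fuca1 and Neu1, 8 of 18493 genes in the deposited table. The levels of Manba chose the set, since its transcript was near absent in the young libraries and abundant in the other 7. Those levels are therefore given as a description, with no test against young oocytes, and the question put to the data is whether the 7 related enzymes followed.

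RNA was sequenced from mouse oocytes of the ovary in 3 groups, titled spermidine (n = 4 libraries), aged (n = 3) and young (n = 3). The labels call the spermidine group a rescue, the aged group a treatment and the young group the control. Spermidine is a natural polyamine. Strain, genotype, age, dose and route of spermidine and the number of oocytes or animals behind a library were not given in the sources used here. The spermidine group is read as aged oocytes with spermidine from the design text, which speaks of improving aged oocytes. Nothing in the labels says that libraries came from separate animals, so the p-values reflect only how far these samples vary, and that variation may be technical.

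Lysosomal glycosidases act in sequence from the outer end of a sugar chain, and the product of one enzyme is the substrate of the next. They digest glycoproteins, glycolipids and glycosaminoglycans that reach the lysosome by endocytosis or autophagy. Most reach it through a mannose 6-phosphate tag added in the Golgi, and the transcription factors Tfeb and Tfe3 drive many of their genes. Inherited loss of any one of the 8 causes a storage disease in humans, such as beta-mannosidosis for Manba or Tay-Sachs disease for Hexa. In the pathway column of the deposited table, the class of other glycan degradation held 18 genes, among them 6 of the 8 (not Gusb and Gla). The lysosome class held 120 genes, among them 7 of the 8 (not Fuca1).

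Library totals were 24222185 to 28730790 counts, spread over 15326 to 15711 detected genes. Of the 18493 genes 12315 passed the filter on low counts and were tested, and 7 of the 8 enzymes were among them. Gusb did not pass the filter. The 12 oocyte markers of 13 that were in the table summed to 23906 to 39741 CPM (counts-per-million) in spermidine libraries, 31399 to 38397 in aged libraries and 31660 to 34804 in young libraries. The 11 granulosa and cumulus markers summed to 21.5 to 27.1, 20.2 to 23.8 and 19.3 to 23.2 CPM in spermidine, aged and young libraries. Cyp19a1 led this sum, at 8.81 to 12.4 CPM in spermidine and aged libraries and 10.9 to 16.7 in young ones. Nr5a2 was higher in spermidine and aged libraries (5.84 to 8.15 CPM) than in young ones (3.63 to 5.03). Fshr was too (0.722 to 2.50 against 0.311 to 0.646). The other markers overlapped between the pooled spermidine and aged libraries and the young ones. Kitl was higher in every aged library (1.431 to 3.17 CPM) than in every young one (0.921 to 1.379). The same held for Ptgs2 (0.183 to 0.434 against 0.044 to 0.072 CPM), and both overlapped between spermidine and young libraries. Red blood cell markers summed to 0.0301 to 0.145 CPM in spermidine libraries, 0.0367 to 9.71 in aged and 0.0359 to 19.9 in young libraries. The high values were those of young replicates 1 and 3 and aged replicate 1, where Hba-a2 was at 5.529, 4.447 and 2.703 CPM. Hba-a2 was at 0 CPM in all other libraries. Aged replicate 1 and spermidine replicate 1 favoured long transcripts most. The correlation of a library's deviations with transcript length, across genes, was 0.504 and 0.215 in them. Aged replicates 2 and 3 had 0.028 and 0.02. All young libraries leaned the other way, at -0.284, -0.226 and -0.136 for replicates 1 to 3. So did spermidine replicates 2 to 4, at -0.097, -0.222 and -0.154. For GC content the same measure was highest in aged replicate 3 (0.417) and lowest in young replicate 3 (-0.346).

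Manba (Gene ID 110173, chromosome 3) encodes beta-mannosidase, which releases the last beta-linked mannose from the core of N-linked glycans. Its level was 74.2, 79.0, 63.0 and 50.9 CPM in spermidine libraries, 58.0, 72.6 and 62.8 CPM in aged libraries, and 0.230, 0.431 and 0.356 CPM in young libraries. All 7 spermidine and aged libraries lay far above all 3 young ones, with no value between 0.431 and 50.9 CPM. The counts behind these levels were 2468, 2178, 1556 and 1326 in spermidine libraries, 1737, 1916 and 1711 in aged libraries, and 5, 12 and 8 in young libraries. The summed young count of 25 has a 95% exact Poisson interval of 16.2 to 36.9, which covers counting error only. Fitted fold changes were 191-fold for spermidine over young and 184-fold for aged over young (log2 7.58 and 7.53). In the authors' deposited table the log2 fold change of aged over young was 7.51. In bulk libraries fewer cells of a type and less RNA per cell cannot be told apart, and counting without a known strand setting cannot separate a gene from an antisense one.

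The difference between spermidine and aged oocytes in Manba was not used to choose the set and was tested. Manba averaged 66.8 CPM ± 12.5 (SD, n = 4) in spermidine oocytes and 64.5 CPM ± 7.47 (SD, n = 3) in aged oocytes, and the 2 groups overlapped. The log2 fold change was 0.05 (SE 0.17, 95% interval -0.32 to 0.43, edgeR adjusted p = 0.882). Its sign was not stable, and the fold change ran from -0.05 to 0.16 with 1 library left out. It was below 0 without spermidine replicate 1, spermidine replicate 2 or aged replicate 1. The interval excludes a change by 1 on the log2 scale in either direction.

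**Figure D1:**
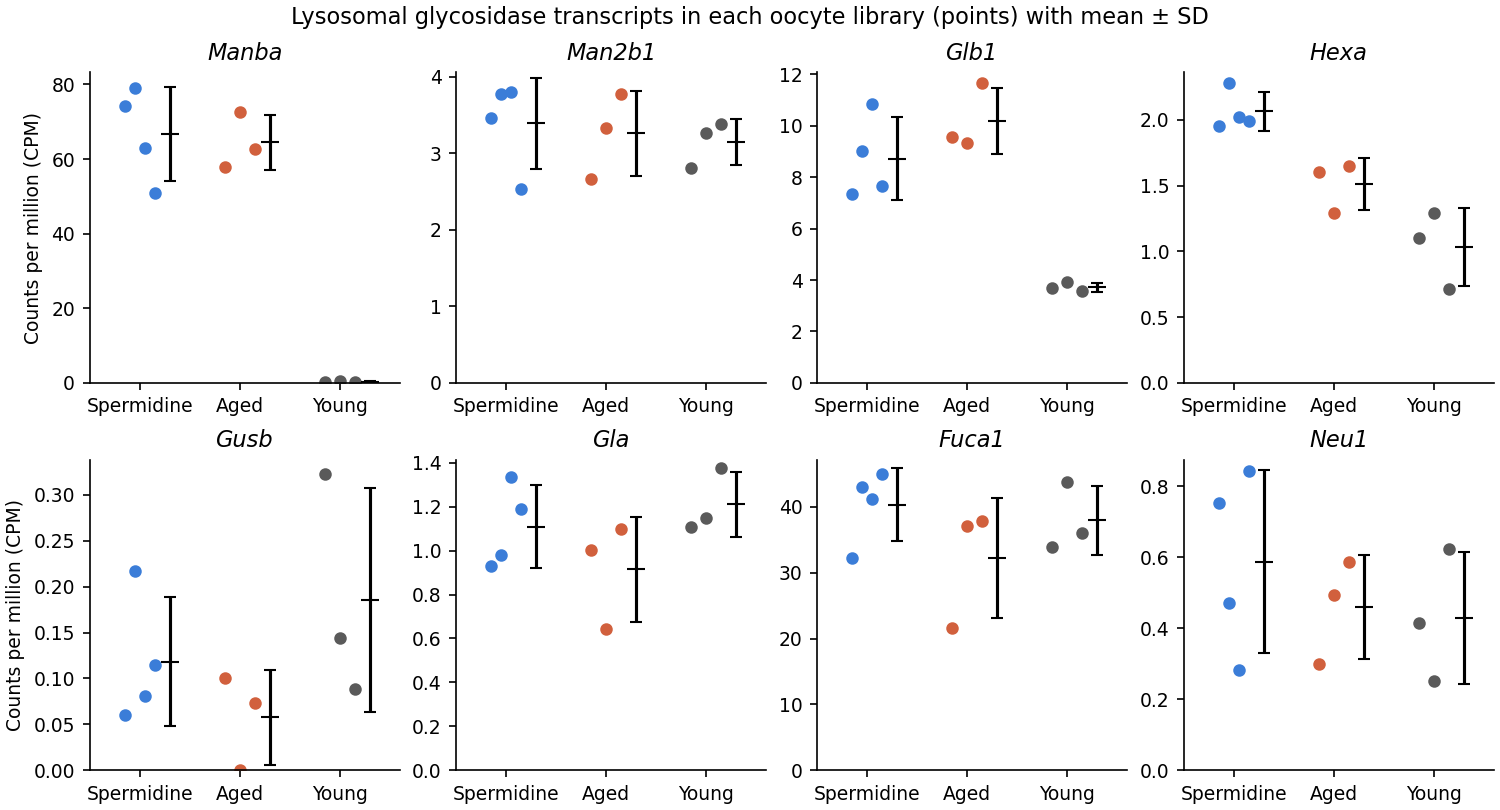
Level of each of the 8 transcripts (CPM, linear axis from 0) in every spermidine, aged and young library (points), with the mean and SD of each group beside them. Manba lies between 50.9 and 79.0 CPM in the spermidine and aged libraries and below 1 CPM in the young ones. Glb1 separates the same libraries on a smaller scale, and the other enzymes overlap more.

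Glb1 (Gene ID 12091, chromosome 9) was the 1 related enzyme that was higher than in young oocytes in both comparisons. It encodes beta-galactosidase, which cleaves galactose from GM1 ganglioside, keratan sulfate and glycoproteins, and whose activity is widely used as a stain for senescent cells. Its level was 7.34, 9.03, 10.9 and 7.67 CPM in spermidine libraries, 9.58, 9.32 and 11.7 CPM in aged libraries, and 3.69, 3.91 and 3.56 CPM in young libraries. Every spermidine and aged library stood above every young one, and the spermidine and aged libraries overlapped. Glb1 rose 2.74-fold in aged over young oocytes (log2 1.45, SE 0.20, adjusted p = 0.000953) and 2.34-fold in spermidine over young oocytes (log2 1.23, SE 0.19, adjusted p = 0.00244). Both calls were kept under all 20 alternatives each, with log2 values of 1.31 to 1.59 and 1.11 to 1.39. The 2 comparisons share the young libraries. Between spermidine and aged oocytes the log2 fold change was -0.23 (95% interval -0.61 to 0.16, adjusted p = 0.462). In the authors' deposited table Glb1 had a log2 fold change of 1.41 for aged over young (q = 3.89e-08) and of -0.24 for spermidine over aged (q = 0.728).

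Hexa (Gene ID 15211, chromosome 9) encodes the alpha subunit of beta-hexosaminidase A, which removes N-acetylgalactosamine from GM2 ganglioside. It was measured at 1.96, 2.28, 2.02 and 1.99 CPM in spermidine libraries, 1.60, 1.29 and 1.65 CPM in aged libraries, and 1.11, 1.29 and 0.712 CPM in young libraries. The spermidine libraries were above all others, while the lowest aged library and the highest young library had the same level to 3 digits. Hexa rose 1.97-fold in spermidine over young oocytes (log2 0.98, SE 0.24, adjusted p = 0.0345). This call was lost without any 1 spermidine library, aged replicate 3, young replicate 1 or young replicate 3 (log2 0.72 to 1.00, adjusted p = 0.0505 to 0.174). Aged over young, its log2 fold change was 0.54 (95% interval -0.02 to 1.09, adjusted p = 0.156). Between spermidine and aged oocytes the groups did not overlap, and the log2 fold change of 0.44 (95% interval -0.05 to 0.94, adjusted p = 0.253) did not pass.

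Promoter sequences are shown for Manba, Glb1 and Hexa, the 3 enzymes whose transcript was higher than in young oocytes in at least 1 comparison. All 8 enzymes were matched in the RefSeq table of GRCm38.p6, which holds 250 bases before to 50 after the start of each gene on its own strand. This is not the mm9 build that the submitters' processing notes name. Positions below count from the start as 1, with -1 just before it. Capitals mark matches to the GC box GGGCGG, a site of Sp1 family factors, or its complement CCGCCC, and to the E-box CACGTG.
Manba, chr3:135485361-135485660, plus strand: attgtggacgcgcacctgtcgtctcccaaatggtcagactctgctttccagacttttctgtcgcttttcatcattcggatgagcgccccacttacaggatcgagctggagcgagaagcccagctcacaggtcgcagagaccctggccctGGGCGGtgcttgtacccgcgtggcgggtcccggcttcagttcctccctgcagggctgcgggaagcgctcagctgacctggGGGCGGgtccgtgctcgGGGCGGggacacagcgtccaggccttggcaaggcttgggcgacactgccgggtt
Glb1, chr9:114400828-114401127, plus strand: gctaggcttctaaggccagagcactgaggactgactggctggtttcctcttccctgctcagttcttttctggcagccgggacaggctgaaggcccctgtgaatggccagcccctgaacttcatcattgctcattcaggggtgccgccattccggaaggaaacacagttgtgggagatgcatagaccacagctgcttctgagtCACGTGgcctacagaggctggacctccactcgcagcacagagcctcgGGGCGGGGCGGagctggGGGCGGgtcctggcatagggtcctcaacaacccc
Hexa, chr9:59539290-59539589, plus strand: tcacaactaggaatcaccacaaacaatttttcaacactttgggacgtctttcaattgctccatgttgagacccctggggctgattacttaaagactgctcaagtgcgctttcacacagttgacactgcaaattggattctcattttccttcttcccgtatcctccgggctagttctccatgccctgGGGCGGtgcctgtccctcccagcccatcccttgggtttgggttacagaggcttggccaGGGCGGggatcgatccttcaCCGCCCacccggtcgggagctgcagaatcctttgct
The Manba window holds 3 GC boxes, at -101, -21 and -4, and no E-box. The Glb1 window holds an E-box at -48 and 3 GC boxes, of which those at -1 and 5 share a base. The Hexa window holds 3 GC boxes, at -64, -6 and 15, the last in complement. Each position given is the first base of the match.

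The E-box CACGTG preceded by GT and followed by AC is the CLEAR element, which Tfeb and Tfe3 bind in promoters of lysosomal genes, and all 3 motifs were searched on both strands. The full CLEAR letters were in 0 of the 8 windows and in 0.326% of 32851 windows. The E-box was in 2 of the 8, Glb1 and Gla, and in 7.15% of all windows. The GC box was in 7 of the 8, the exception being Gusb, and in 35.7% of all windows. Of the 2 with an E-box, Glb1 was higher than in young oocytes and Gla did not pass. A match is a description of the letters and no evidence of binding.

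Fuca1 (Gene ID 71665, chromosome 4) encodes the lysosomal alpha-L-fucosidase. It was abundant in every group, at 32.3, 43.1, 41.1 and 45.0 CPM in spermidine libraries, 21.7, 37.1 and 37.8 CPM in aged libraries, and 33.9, 43.8 and 36.1 CPM in young libraries. The groups overlapped, and the lowest value was that of aged replicate 1. Its log2 fold change was -0.24 for aged over young (95% interval -0.71 to 0.23, adjusted p = 0.446), 0.09 for spermidine over young (-0.35 to 0.53, adjusted p = 0.841) and 0.33 for spermidine over aged (-0.11 to 0.77, adjusted p = 0.345).

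Man2b1 (Gene ID 17159, chromosome 8) encodes the lysosomal alpha-mannosidase, which trims the alpha-linked mannoses that precede the beta-linked one cut by Manba. Its level was 3.46, 3.77, 3.81 and 2.53 CPM in spermidine libraries, 2.67, 3.34 and 3.78 CPM in aged libraries, and 2.81, 3.27 and 3.38 CPM in young libraries. The 3 groups covered nearly the same range. The log2 fold change was 0.05 for aged over young (95% interval -0.43 to 0.52, adjusted p = 0.896), and 0.10 for spermidine over young (-0.34 to 0.55, adjusted p = 0.813). Both intervals exclude a change by 1 on the log2 scale, as did that of spermidine over aged, at 0.06 (-0.38 to 0.50).

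Gla (Gene ID 11605, chromosome X) encodes alpha-galactosidase A, which cleaves globotriaosylceramide. It stood at 0.932, 0.979, 1.34 and 1.19 CPM in spermidine libraries, 1.00, 0.644 and 1.10 CPM in aged libraries, and 1.11, 1.15 and 1.38 CPM in young libraries. The aged libraries lay just below the young ones, and the log2 fold change of -0.40 (95% interval -1.01 to 0.21, adjusted p = 0.329) did not pass. For spermidine over young oocytes it was -0.13 (-0.70 to 0.43, adjusted p = 0.815), and 0.037 when scaled by total counts. Neu1 (Gene ID 18010, chromosome 17) encodes the sialidase that works in a complex with beta-galactosidase and cathepsin A. It stood at 0.752, 0.471, 0.283 and 0.844 CPM in spermidine libraries, 0.300, 0.493 and 0.587 CPM in aged libraries, and 0.415, 0.251 and 0.623 CPM in young libraries. Values this low spread widely, and the interval of the aged over young log2 fold change, 0.11, ran from -0.96 to 1.18 (adjusted p = 0.889). For spermidine over young oocytes it was 0.48 (-0.50 to 1.46, adjusted p = 0.596). A change of the size seen for Hexa was therefore not detectable in Neu1 at this depth.

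Gusb (Gene ID 110006, chromosome 5) encodes beta-glucuronidase, which acts on glycosaminoglycans. It had 2, 6, 2 and 3 counts in spermidine libraries, 3, 0 and 2 counts in aged libraries, and 7, 4 and 2 counts in young libraries. The sums of 13, 5 and 13 counts in spermidine, aged and young oocytes have 95% exact Poisson intervals of 6.92 to 22.2, 1.62 to 11.7 and 6.92 to 22.2, which overlap. The 0 in aged replicate 2 allows up to 0.109 CPM at a limit of 3 counts, taken here against the library's raw total and not the TMM-scaled one.

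Of the 6 related enzymes tested, 1 was higher and 0 lower in aged over young oocytes, where 17.8% of all 12315 tested genes were called, 9.71% as higher and 8.06% as lower. In spermidine over young oocytes 2 were higher and 0 lower, where 5.36% of all genes were called, 3.44% as higher and 1.92% as lower. In spermidine over aged oocytes 0 passed by edgeR, where 4.86% of all genes were called, 2.42% as higher and 2.44% as lower. At an unadjusted edgeR p under 0.05 there were 0 of the 6, beside 2982 of 12315 genes. By DESeq2 there were 0 as well, beside 1355 of 18493 genes. The median log2 fold change of the 6 was 0.08, 0.29 and 0.30 in these 3 comparisons, beside 0.10, 0.04 and -0.03 over all tested genes. For aged over young, 1 call in 6 is near the share over all genes. Groups did not overlap for Glb1 and Gla in aged over young oocytes (40.0% of all genes, 21.1% with the aged group higher), for Glb1 and Hexa in spermidine over young oocytes (21.0%, 12.1% higher), and for Hexa in spermidine over aged oocytes (19.9%, 11.4% higher). In aged over young oocytes 1196 genes were higher and 993 lower. With total counts as the scale the split was 1236 higher and 405 lower and the median over all genes 0.24. With RLE factors it was 1090 higher and 1110 lower, and with DESeq2 1374 higher and 1419 lower. In spermidine over young oocytes 424 were higher and 236 lower, which became 605 and 126 with total counts (median 0.23) and 551 and 522 with DESeq2. Glb1 and Hexa were higher under each of these scales.

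**Figure D2:**
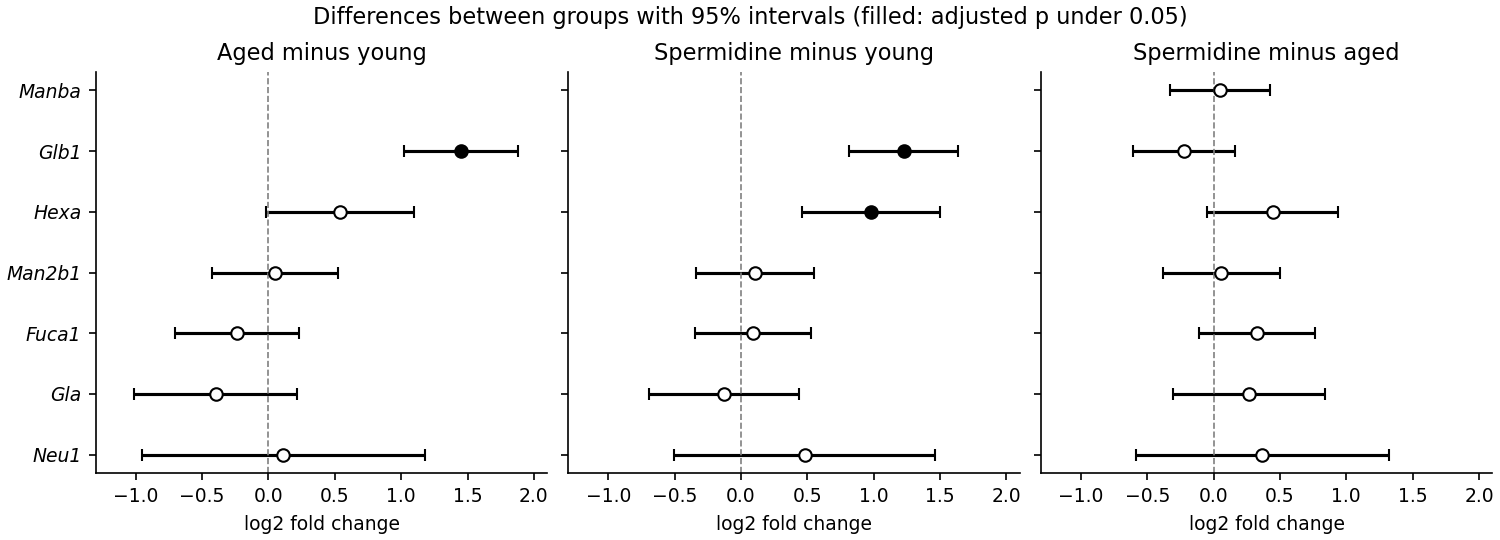
Log2 fold change (x axis) with 95% interval of each tested enzyme in aged minus young, spermidine minus young and spermidine minus aged, filled where the adjusted p was under 0.05. Glb1 is filled in both comparisons with young oocytes (1.45 and 1.23), Hexa in spermidine minus young (0.98), and no enzyme in spermidine minus aged. Manba is drawn in spermidine minus aged alone, since its differences from young oocytes chose the set.

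Levels of different genes were compared per kilobase of the longest coding transcript. In spermidine oocytes Manba (18.2 CPM per kilobase) and Fuca1 (15.99) led and overlapped. Glb1 (3.64) followed, then Hexa (1.03) and Man2b1 (0.887), which overlapped, Gla (0.350) and Neu1 (0.238), which overlapped, and Gusb (0.0441). In aged oocytes Manba (17.5) was above Fuca1 (12.7) with no overlap, followed by Glb1 (4.25), Man2b1 (0.853) and Hexa (0.758), Gla (0.289) and Neu1 (0.186), and Gusb (0.0215). Man2b1 overlapped Hexa, and Gla overlapped Neu1. In young oocytes Fuca1 (15.03) stood alone at the top, above Glb1 (1.55), Man2b1 (0.825), Hexa (0.519), Gla (0.382), Neu1 (0.174), Manba (0.0922) and Gusb (0.0689). There Hexa overlapped Gla, and the last 3 overlapped each with the next.

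Summed over the 8 enzymes, the level per kilobase was 38.5, 45.0, 40.6 and 37.3 in spermidine libraries, 30.3, 40.3 and 39.4 in aged libraries, and 17.0, 21.1 and 17.8 in young libraries. Every spermidine and aged sum was above every young one. The sum of the 7 related enzymes without Manba was 18.3, 23.5, 23.4 and 23.4 in spermidine libraries, 14.5, 20.5 and 22.3 in aged libraries, and 16.9, 21.0 and 17.7 in young libraries, and all groups overlapped. Manba made up 45.0% of the mean sum of 8 in spermidine oocytes, 47.9% in aged oocytes and 0.495% in young oocytes. Fuca1 made up 39.6%, 34.8% and 80.6% of it in the same order of groups. The sums describe the set, whose choice fixes the part of Manba.

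**Figure D3:**
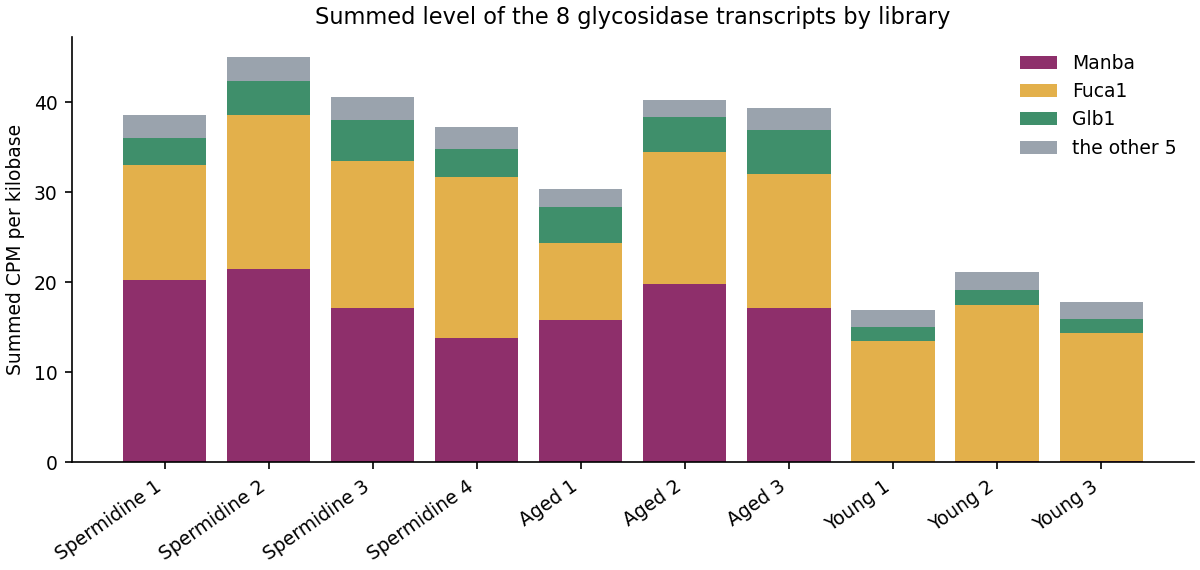
Summed level of the 8 transcripts (CPM per kilobase, axis from 0) in each spermidine, aged and young library, split by colour into Manba, Fuca1, Glb1 and the other 5. The young bars reach 17.0 to 21.1 with almost no Manba, and the 7 others 30.3 to 45.0. Without the Manba segment the bars of the 3 groups overlap.

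Other genes of the same chemistry and of enzyme delivery were counted in 3 lists. Among 22 other lysosomal glycan-degrading enzymes and cofactors 15 were tested, and in aged over young oocytes 3 were higher and 2 lower (median log2 0.23), beside 9.71% and 8.06% of all genes and a median of 0.10. Gaa, the acid alpha-glucosidase of lysosomal glycogen, was higher (1.52, SE 0.35, adjusted p = 0.0125). Its levels were 5.24, 9.74 and 9.36 CPM in aged libraries and 2.58, 3.41 and 2.45 CPM in young libraries. Naglu, an enzyme of heparan sulfate breakdown, was also higher (1.86, SE 0.44, adjusted p = 0.0142). Idua, the alpha-L-iduronidase (-0.48, SE 0.13, adjusted p = 0.0283), and the sulfatase Arsk (-0.74, SE 0.22, adjusted p = 0.0344) were lower. Both lower calls ended with total counts as the scale (Idua -0.34, adjusted p = 0.132, and Arsk -0.59, adjusted p = 0.154) and with no filter (adjusted p = 0.0665 and 0.0522). After correction for length and GC content Gaa kept its call with a log2 fold change of 0.98. In spermidine over young oocytes edgeR called 0 of the 15 and DESeq2 3, while 7 were under 0.05 before adjustment, and the median was 0.08. Over all genes edgeR called 5.36% and DESeq2 1073 of 18493. Before adjustment 2461 of 12315 genes were under 0.05, and the median was 0.04. Partners of the 8 include Gm2a, which presents GM2 ganglioside to the Hexa enzyme (log2 -1.53 for aged over young and -2.24 for spermidine over young, not called), and Ctsa, the protective cathepsin of the Glb1 and Neu1 complex (0.56 and 0.08, not called). Both were picked for their role with their values already known.

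Of 18 genes of enzyme targeting and lysosome biogenesis 17 were tested, and in aged over young oocytes 3 were higher and 0 lower (median log2 0.48). That is 3 of 17, where 17.8% of all tested genes were called in either direction and the median over all genes was 0.10. These were Tfe3, a transcription factor of lysosomal genes (0.75, SE 0.16, adjusted p = 0.011), Gga3, an adaptor of mannose 6-phosphate receptors (0.91, SE 0.23, adjusted p = 0.0193), and Scarb2, the receptor that carries beta-glucocerebrosidase (1.08, SE 0.32, adjusted p = 0.0375). Tfe3 stood at 35.7, 34.0 and 37.5 CPM in aged libraries and 18.9, 23.2 and 21.7 CPM in young libraries, with no overlap. All 3 calls ended after correction for length and GC content, with log2 fold changes of 0.32 for Tfe3 (adjusted p = 0.145), 0.55 for Gga3 (adjusted p = 0.144) and 0.94 for Scarb2 (adjusted p = 0.0919). In spermidine over young oocytes 1 of the 17 was higher, where 3.44% of all genes were, and the median was 0.20 beside 0.04. The gene was Scarb2 (1.24, SE 0.31, adjusted p = 0.0364), whose call ended with the same correction (1.13, adjusted p = 0.0586). The receptor genes M6pr and Igf2r were at -0.07 and 0.06 for aged over young, not called and named after their values were seen.

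Of 26 glycosidases outside the lysosome 19 were tested, and 1 was higher and 0 lower in each comparison with young oocytes. Over all tested genes 9.71% were higher in aged and 3.44% in spermidine over young oocytes. The list's median log2 was 0.29 for aged and 0.13 for spermidine, beside 0.10 and 0.04 over all genes. The 1 higher gene was Edem1 both times, which recognises mannose-trimmed misfolded glycoproteins in the endoplasmic reticulum. Its levels were 13.0, 10.7, 11.4 and 8.90 CPM in spermidine libraries, 12.9, 7.24 and 7.08 CPM in aged libraries, and 3.36, 2.51 and 3.91 CPM in young libraries. Every spermidine and aged library was above every young one. Its log2 fold change was 1.48 for aged over young (SE 0.27, adjusted p = 0.00471) and 1.76 for spermidine over young (SE 0.26, adjusted p = 0.00202). Both calls were kept with any 1 library left out.

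Between spermidine and aged oocytes 4 genes of these lists passed, with 15, 17 and 19 genes tested, where 4.86% of all genes were called. The lysosomal cofactor precursor Psap (-1.08, SE 0.24, adjusted p = 0.0297), the sulfatase Arsb (-1.12, SE 0.27, adjusted p = 0.0382) and Tfe3 (-0.62, SE 0.15, adjusted p = 0.0411) were lower. Man1a, a Golgi alpha-mannosidase, was higher (0.78, SE 0.20, adjusted p = 0.0496). Tfe3 was at 27.3, 19.9, 20.3 and 25.7 CPM in spermidine libraries, below all aged libraries. Arsb was at 3.40, 1.92, 2.15 and 4.56 CPM in spermidine libraries and 6.41, 6.59 and 6.64 CPM in aged libraries, with no overlap. The list medians were -0.19 for the lysosomal enzymes, -0.19 for targeting and -0.14 for glycosidases outside the lysosome, beside -0.03 over all genes. All 4 calls ended with total counts as the scale (adjusted p = 0.0553 to 0.141) and with only these 2 groups in the fit (adjusted p = 0.0669 to 0.0965). After correction for length and GC content Tfe3 was at -0.34 (adjusted p = 0.134) and Psap at -0.95 (adjusted p = 0.0566). With no filter the calls of Tfe3 and Man1a ended (adjusted p = 0.0554 and 0.071), and those of Psap and Man1a without aged replicate 1 and spermidine replicate 1 together (adjusted p = 0.0987 and 0.0872).

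Most calls of these lists were lost when some single library was left out, and calls over all genes fell as well. In aged over young oocytes 8 of 9 were lost without young replicate 1 (adjusted p = 0.0541 to 0.126) and 7 without young replicate 3 (adjusted p = 0.0604 to 0.134). Without aged replicate 2 or aged replicate 3 each, 4 were lost, and without aged replicate 1 or young replicate 2 each, 2. Without spermidine replicate 2, 1 was lost, that of Scarb2 (adjusted p = 0.056). Scarb2 in spermidine over young oocytes was lost in 6 such cases, without spermidine replicate 2 or 4, aged replicate 2 or any 1 young library (adjusted p = 0.0518 to 0.134). In spermidine over aged oocytes all 4 were lost without spermidine replicate 2 (adjusted p = 0.106 to 0.123), spermidine replicate 3 (0.0527 to 0.112) or aged replicate 2 (0.0834 to 0.171), and 2 or 3 of them without each other library but spermidine replicate 4. Over all genes, the aged over young calls fell from 2189 to 827 without young replicate 1 and to 1031 without young replicate 3. Those of spermidine over aged fell from 598 to 111, 167 and 99 without spermidine replicate 2, spermidine replicate 3 and aged replicate 2. The losses in these lists are therefore not particular to them.

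**Figure D4:**
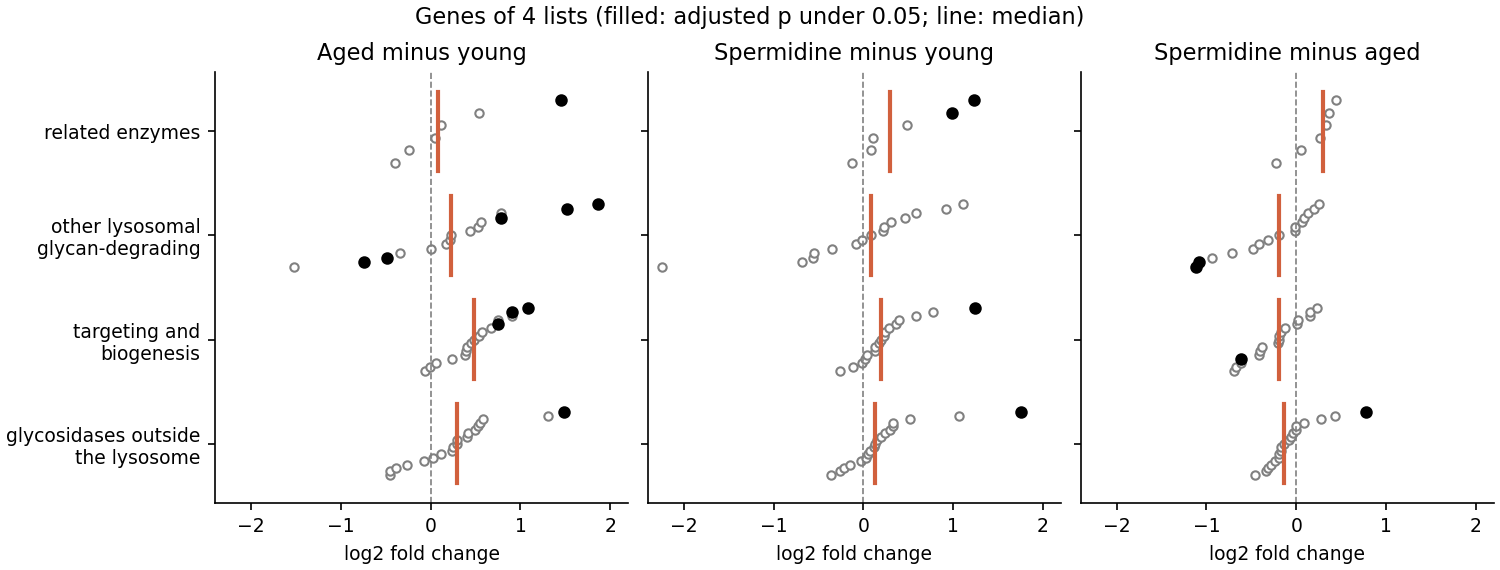
Log2 fold change (x axis) of every tested gene of 4 lists (rows) in 3 comparisons (panels), filled where the adjusted p was under 0.05, with the list's median as a vertical line. In aged minus young the medians are 0.08, 0.23, 0.48 and 0.29 from top to bottom. In spermidine minus aged the 6 related enzymes have a median of 0.30 with no filled point.

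Manba was also set beside its nearest protein-coding genes on chromosome 3, which in RefSeq order are Slc9b1, Cisd2 and Ube2d3 on one side and Nfkb1, Slc39a8 and Bank1 on the other. Slc9b1, a sodium and hydrogen exchanger gene, stood at 62.6, 71.6, 65.3 and 58.2 CPM in spermidine libraries, 45.2, 45.5 and 51.4 CPM in aged libraries, and 159, 120 and 161 CPM in young libraries. It moved opposite to Manba, with log2 fold changes of -1.63 for aged over young (SE 0.15, adjusted p = 7.98e-05) and -1.18 for spermidine over young (SE 0.14, adjusted p = 0.000425), and both calls were kept under all 20 alternatives. Nfkb1, the p105 and p50 subunit of NF-kappaB, was at 2.32, 2.54, 2.23 and 2.07 CPM in spermidine libraries, 2.74, 2.16 and 1.69 CPM in aged libraries, and 1.43, 1.26 and 1.02 CPM in young libraries. Its log2 fold changes of 0.83 and 0.89 for aged and spermidine over young passed (adjusted p = 0.0346 and 0.0438). The calls of Nfkb1 were lost under 10 and 13 of 19 alternatives, among them any 1 young library left out and correction for length and GC content (0.51, adjusted p = 0.183, and 0.77, adjusted p = 0.0653). They were also lost without aged replicate 1, aged replicate 2 or spermidine replicate 2 for aged over young, and without any 1 spermidine library or aged replicate 2 for spermidine over young.

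Slc39a8, a zinc and manganese transporter gene, was at 0.962, 0.145, 0.243 and 1.42 CPM in spermidine libraries, 1.17, 0.910 and 5.76 CPM in aged libraries, and 0.369, 0.144 and 0.267 CPM in young libraries. Aged replicate 3 was far above the other 9 libraries. Its aged over young log2 fold change of 3.34 (SE 0.91, adjusted p = 0.0262) was 2.02 without that library (adjusted p = 0.11), and the call was also lost without any 1 young library, with no filter, and with aged replicate 1 and spermidine replicate 1 both removed. Cisd2, Ube2d3 and Bank1 did not pass, at -0.22, -0.08 and -0.14 for aged over young and -0.19, -0.18 and -0.07 for spermidine over young. The immediate neighbours of Manba, Ube2d3 and Nfkb1, thus differed by less than 1 on the log2 scale, beside 7.53 and 7.58 for Manba.

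**Figure D5:**
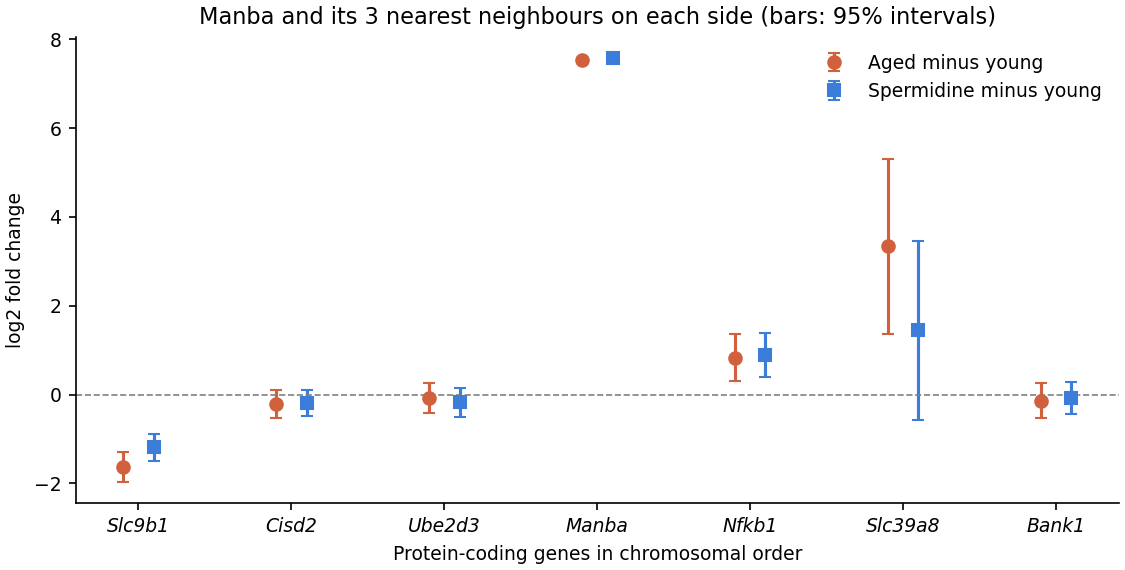
Log2 fold change (y axis) of Manba and its 3 nearest protein-coding genes on each side, in chromosomal order and not to distance, for aged minus young (circles) and spermidine minus young (squares), with 95% intervals for the neighbours. Manba stands at 7.53 and 7.58, Slc9b1 below 0 in both, and Slc39a8 has the widest intervals.

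The genes whose level followed Manba most closely were ranked over all 10 libraries, by the root mean square difference of log2(CPM + 1) values after each gene was centred on its mean. The 5 nearest were Srgn (0.948), Gm13103 (1.03), Gm13089 (1.14), Slc14a1 (1.18) and Gm51793 (1.21). Srgn, the proteoglycan serglycin, was at 80.3, 101, 91.3 and 31.9 CPM in spermidine libraries, 63.1, 66.3 and 72.8 CPM in aged libraries, and 8.85, 2.12 and 1.73 CPM in young libraries. Gm13103 and Gm13089 (Pramel27 and Pramel23 in RefSeq) belong to the Pramel family, whose close copies can share reads. Gm13103 was at 177, 288, 278 and 24.0 CPM in spermidine libraries, 350, 351 and 339 CPM in aged libraries, and 6.40, 4.99 and 4.63 CPM in young libraries. All 5 were lower in young oocytes by choice, and spermidine replicate 4 was the lowest spermidine library for Srgn, Gm13103, Gm13089 and Slc14a1, as it was for Manba. With a pseudocount of 0.1 CPM 1 of the 5 was still among the 5 nearest.

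Among the related enzymes Glb1 was the closest to Manba, at rank 97 of the tested genes (difference 2.08), and Hexa was at rank 919 (2.37). Neu1 was at rank 5128, Man2b1 at 5412, Fuca1 at 7879 and Gla at 8653. Macrophages, which are rich in lysosomal enzymes, were looked at by their markers. The 12 markers summed to 18.1 to 25.0 CPM in spermidine libraries, 21.9 to 26.9 in aged libraries and 23.0 to 32.2 in young libraries. Most of this sum came from C1qb, at 8.72 to 17.1 CPM in spermidine libraries, 15.6 to 17.4 in aged libraries and 14.5 to 20.5 in young libraries, and from Mrc1, at 5.95 to 8.39, 5.27 to 7.64 and 4.47 to 8.62 CPM in the same groups. Cd14 and Itgam had 0 counts in spermidine and aged libraries and at most 0.046 CPM in young libraries, and Adgre1, Lyz1, C1qa and C1qc had 0 counts in spermidine libraries. Ptprc and Lyz2 were at 4.15 and 1.34 CPM in young replicate 1 and at most 0.567 and 0.934 CPM elsewhere. Of 5 granulosa and cumulus markers tested, 2 were higher in aged over young oocytes, where 9.71% of all genes were. In spermidine over young oocytes 1 was higher, where 3.44% of all genes were. The part of macrophages or of granulosa and cumulus cells in these results was not tested.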

How the data were processed

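Libraries were made by SMART-seq2, from an oligo dT primer with amplification, and sequenced on DNBseq, per the labels' protocols. The submitters' processing notes list the build mm9, RSEM 1.3.1 and Bowtie2 2.3.4.3, as well as DESeq2 1.4.5. The authors deposited an expected count per gene and library, of which 15.9% to 16.7% were not whole. Their log2 fold changes, p-values and q-values stand in the same deposited file and are printed only where named.

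Expected counts were rounded. Genes passed filterByExpr, libraries were scaled by TMM, and 12315 genes were tested in edgeR 4.0.16 (R 4.3.3) with its robust quasi-likelihood F test. A single model held all 10 libraries, with 1 mean for each group. P-values were adjusted over all tested genes within a comparison (Benjamini-Hochberg, threshold 0.05, 3 comparisons). The SE is the one implied by F. CPM are counts relative to the TMM-scaled total, computed here, and per kilobase values use the longest coding transcript of GENCODE M21 (GRCm38), a build other than mm9. Alternatives were total counts or RLE factors as scale, a filter of 10 CPM in 3 libraries or none, DESeq2 1.42.0, a non-robust model, a replicate block, and a model of just the 2 groups. Each library was also left out, as were aged replicate 1 and spermidine replicate 1 together, and length and GC content were corrected for (known for 97.4% of tested genes).

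The members, lists and neighbour and likeness rules were chosen with earlier results of these data known. Named genes were the 8 members, up to 6 genes per list and comparison that passed, by smallest p, 3 neighbours per side and the 5 genes most like Manba. Some genes of the lists are counted but not reported here by name. Libraries of a group differed by more than counting noise in every pair, so none was counted as a duplicate. In simulated data 12219 genes were in the fit. For aged minus young 63% of genes changed by 1 and 100% of those changed by 2 (log2) were recovered. There were 13 false among 176 calls. Every simulated gene had the same dispersion, the median of these data, and only genes of at least 1 CPM were changed. The rates therefore do not cover genes that vary more than the median, or genes as low as Neu1 and Gusb. Intervals and limits from counts cover counting error only, as no molecular identifiers are stated. Figures were drawn with matplotlib 3.10.9.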

Additional observations from a re-analysis of the deposited data

How the results depend on the processing

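The 1 call among the related enzymes in aged over young oocytes (Glb1) and the 0 calls in spermidine over aged oocytes were the same under all alternatives run. In spermidine over young oocytes the count of 2 was 1 with a filter of 10 CPM in 3 libraries, where only 2 of these enzymes were left to test, 1 with the replicate block (Hexa at adjusted p = 0.0717), and 1 to 2 with a library left out. Manba in spermidine over aged oocytes, at 0.05, was -0.042 with aged replicate 1 and spermidine replicate 1 both left out and -0.051 to 0.162 with 1 library left out. The cause was not tested.

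Signs of small, uncalled differences also turned. For aged over young, length and GC correction gave -0.30 for Man2b1 and -0.22 for Neu1, total counts gave 0.065 for Ube2d3 and 0.0059 for Bank1, and leaving 1 library out gave -0.070 to 0.13 for Man2b1 and -0.18 to 0.42 for Neu1. For spermidine over young, total counts gave 0.037 for Gla and 0.11 for Bank1, and leaving 1 out gave -0.0081 to 0.22 for Man2b1 and -0.022 to 0.20 for Fuca1. For spermidine over aged, Man2b1 was -0.047 with the 2 libraries left out and -0.068 to 0.17 with 1 left out, Nfkb1 ran from -0.10 to 0.25 and Bank1 from -0.034 to 0.15.

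The count over all genes moved more. It was 1179 for aged over young with the 10 CPM filter, 273 with that filter and 1073 with DESeq2 for spermidine over young, and for spermidine over aged 259 with total counts, 1355 with DESeq2, 124 with only the 2 groups and 998 with the replicate block. With 1 library left out it ran from 827 to 2362, 283 to 874 and 99 to 1127. Same-numbered libraries did not deviate together in every pair (correlations of -0.404 to 0.552, the highest for its own number in 2 of 9 cases, among them the 0.552 of spermidine replicate 1 and aged replicate 1), so the numbers are not taken as pairs. Gusb, Neu1, Gla and Hexa lie near or below 2 CPM, which limits what depth can show for them.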

Other observations

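The pattern of Manba was rare among the 12315 tested genes. It was the 1 gene below 1 CPM in every young library and above 20 CPM in each of the other 7. At 5 CPM in place of 20 there were 5, Manba, Cyp27a1, Slc14a1, Mb and Kcng2, and the mirror pattern, high in young and near absent elsewhere, was held by 0 genes. These limits were chosen after the values of Manba were known. Cyp27a1, the mitochondrial sterol 27-hydroxylase, stood at 8.15, 9.06, 7.98 and 7.56 CPM in spermidine libraries, 7.04, 6.29 and 5.58 CPM in aged libraries, and 0.230, 0.287 and 0.222 CPM in young libraries. Mb, which encodes myoglobin, stood at 7.55, 9.32, 8.46 and 8.40 CPM in spermidine libraries, 7.17, 7.39 and 7.93 CPM in aged libraries, and 0.461, 0.826 and 0.801 CPM in young libraries. Kcng2, a modifier subunit of potassium channels, spread from 6.54 to 17.3 CPM in aged libraries. Slc14a1, a urea transporter gene, had 0 counts in young replicates 2 and 3.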
